A study of Gallus gallus with 19 samples.

Results

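The knockdown of Nanog in the chick neural plate border (NPB) was examined in 8 of the 19 bulk RNA sequencing samples of the series, the 4 Nanog MO samples and the 4 control MO samples of the same experiment. Each Nanog MO sample was matched with the control MO sample of the same replicate number. By the bilateral design, the samples of a pair were taken as opposite sides of the same pool of embryos. A morpholino (MO) is a synthetic antisense oligomer, and the translation blocking kind binds the mRNA near its start codon. Gastrulae at stage HH4 were electroporated with the Nanog MO on one side and with a control MO on the opposite side, and dorsal neural folds were collected at HH7/HH8-. All 8 samples were wild type (WT), and the labels call them midbrain and neural crest. Both MOs carried carboxyfluorescein and were introduced together with an empty carrier plasmid, which the controls therefore share. Electroporation reaches part of the cells on a side, and each sample pooled several embryos, so a level is a mean over reached and unreached cells of several animals. Reads were counted per gene by the authors, and of the 24356 genes in the table, the 18346 with over 5 reads in any of the 8 samples were tested. Total counts were 42873895 to 44726348 in Nanog MO and 31215191 to 41915646 in control MO, so that every Nanog MO library was deeper than every control MO library.

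Nanog is a homeodomain transcription factor of pluripotent cells, where it acts with Oct4, called PouV or POU5F3 in chick, and Klf4. The NPB is the strip of ectoderm between the neural plate and the future epidermis, and it gives rise to neural crest, dorsal neural tube and placodes. Its factors, among them PAX7, MSX1, TFAP2A and the ZIC genes, are switched on before those of specified crest such as FOXD3 and SOX10. The p53 protein is a transcription factor that responds to DNA damage and other stress, and its best known targets stop the cell cycle, start apoptosis or, as MDM2 does, remove p53 itself.

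The targeted gene was first read in every sample. NANOG had 7.13, 6.48, 4.56 and 7.36 CPM in Nanog MO, against 11.1, 3.57, 6.51 and 4.79 CPM in control MO, and the groups overlapped (log2 fold change 0.07, SE 0.25, adjusted p = 0.933). A translation blocking MO is not designed to remove the mRNA, so this level does not measure how far the protein was reduced, and the library labels have no check from the targeted gene. POU5F3 had 689, 726, 833 and 569 CPM in Nanog MO, against 885, 716, 867 and 826 CPM in control MO (log2 fold change -0.23, SE 0.0943, adjusted p = 0.299). KLF4 had 6.72, 6.87, 6.52 and 7.800 CPM in Nanog MO, against 7.59, 7.41, 6.51 and 8.16 CPM in control MO (log2 fold change -0.09, SE 0.11, adjusted p = 0.766). Neither of these partner genes passed the paired test, and the ranges of both groups overlapped. POU5F3 was called lower in 1 of 12 alternative fits. Values in CPM are read counts scaled to a common library size with the TMM factors, and they are compared between samples and not between genes, since they are not divided by gene length. All fold changes are Nanog MO over control MO.

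The tissue was then compared with the labels by its markers. Border genes were present in every library, with DLX5 at 57.3, 82.4, 57.5 and 70.3 CPM in Nanog MO, against 89.3, 84.8, 61.3 and 70.8 CPM in control MO. The defining gene of specified crest, SOX10, was at 6.08, 7.03, 4.33 and 6.29 CPM in Nanog MO, against 4.99, 4.83, 4.86 and 6.92 CPM in control MO, and it was detected in every library. FOXD3, an earlier crest factor, had 53.7, 31.8, 70.97 and 40.2 CPM in Nanog MO, against 67.5, 61.8, 52.5 and 101 CPM in control MO (log2 fold change -0.55, SE 0.24, adjusted p = 0.337). The midbrain and forebrain factor OTX2 was at 265, 190.2, 222 and 238 CPM in Nanog MO, against 314, 172, 229 and 264 CPM in control MO, with overlapping groups. KRT18, a keratin of non-neural ectoderm, had 301, 525, 218 and 406 CPM in Nanog MO, against 149, 443, 157 and 119.5 CPM in control MO (log2 fold change 0.87, SE 0.21, adjusted p = 0.0876). Markers of mesoderm, endoderm and vessels were detected in both groups too, and are given after the ectodermal genes.

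Across all genes, 312 passed the paired test at an adjusted p of 0.05 (edgeR quasi-likelihood test with replicate number as a block, Benjamini-Hochberg adjustment), which was 1.7% of the genes tested. Of these, 170 were higher in Nanog MO, or 0.927% of genes tested, and 142 were lower, or 0.774%. The median log2 fold change was 1.01 among the genes that rose and -0.53 among those that fell. Of the rises 85 exceeded 2-fold, and of the falls 13. Among rises with a gene symbol the median was 0.73, and 28 of 105 exceeded 2-fold. A mean under 1 CPM was found for 24 rises and 0 falls. The genes that fell were the more abundant ones, with a median level over the 8 samples of 64.5 CPM against 9.13 CPM for those that rose. The median over all 18346 genes was 0.01. Ranges of the groups did not overlap for 209 of the 312 genes, and over all tested genes this was so for 830, or 4.52%. The number of calls rested on the pairing, for without the replicate block 44 genes were called, 38 higher and 6 lower. It also rested on pair 1, without which 71 genes were called, and on pair 3, without which 134 were called. The count of lower calls also fell without pair 2, to 73.

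**Figure D1:**
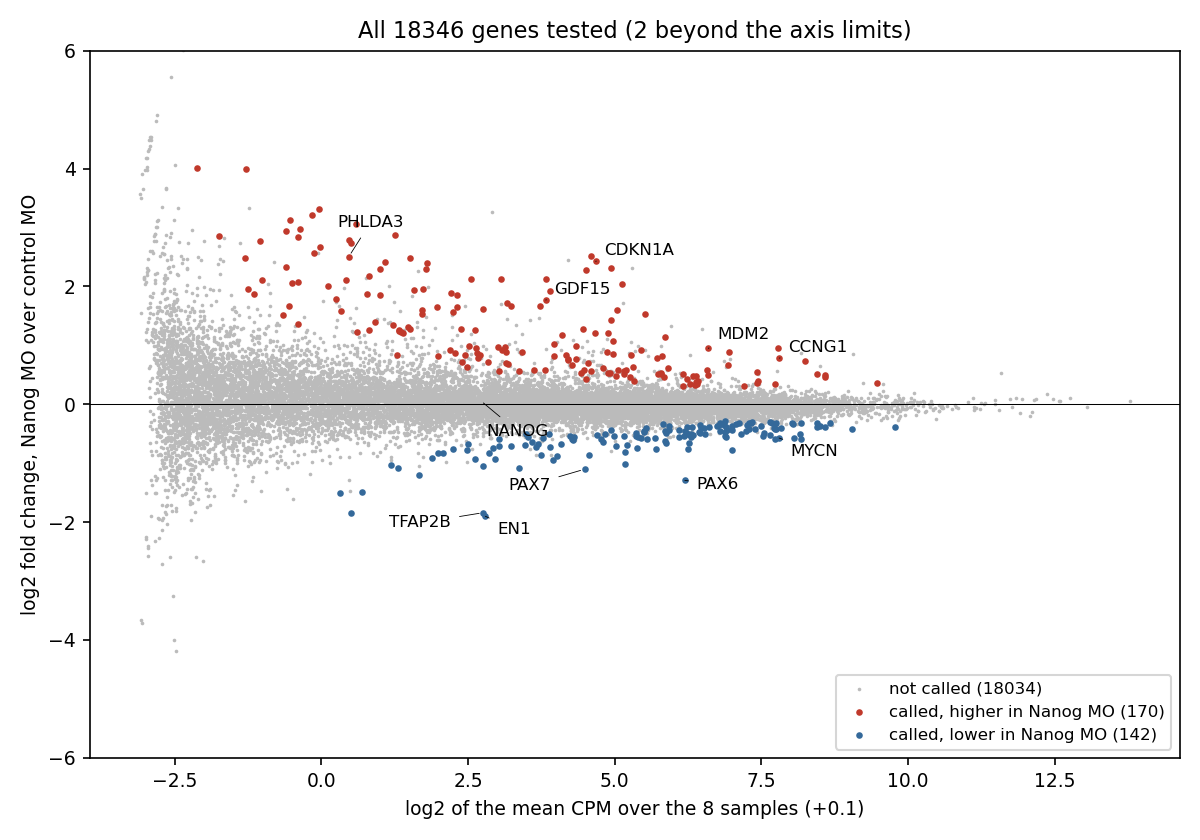
Log2 fold change of Nanog MO over control MO for each of the 18346 genes tested, against the log2 of its mean CPM over the 8 samples. The 170 genes that rose (red) reach higher fold changes and lower levels than the 142 that fell (blue), with CDKN1A and PHLDA3 among the upper and EN1 and TFAP2B among the lower points.

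The genes that rose with the lowest p included several targets of p53. CDKN1A, which encodes the cell cycle inhibitor p21, was 5.38-fold higher in Nanog MO than in control MO, and 9 of 42 p53 targets tested rose while none fell, against 0.927% of all genes called higher. The genes that rose act at several steps of the pathway, from cell cycle arrest to death receptors and the removal of p53. The other 33 p53 targets lay on both sides of 0, with 18 positive and 15 negative log2 fold changes and a median of 0.02, and the median of all 42 was 0.06. The list was compiled from genes described as p53 targets in mammals. Of its members 5 are among genes that the study picked from these samples as changed in all its knockdowns, 4 of them among the 9 that rose here, so those are not independent evidence of direction. All 9 were called when any single pair was left out, 6 were called without the replicate block, and 6 against all 8 controls of the series. Those controls come from the Nanog, PouV and Klf4 experiments, and that fit has no term for pair or experiment.

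CDKN1A had 53.6, 40.5, 53.4 and 23.8 CPM in Nanog MO, against 13.01, 6.396, 8.85 and 4.43 CPM in control MO (log2 fold change 2.43, SE 0.12, adjusted p = 0.000197). Its lowest Nanog MO sample, in pair 4, was above its highest control, and pair 4 was the lowest on both sides. PHLDA3, an inhibitor of AKT signalling, had 2.43, 2.495, 2.07 and 1.73 CPM in Nanog MO, against 0.531, 0.414, 0.335 and 0.262 CPM in control MO, and was 5.67-fold higher (log2 fold change 2.50, SE 0.22, adjusted p = 0.00104). Its level was low in both groups, but they did not overlap. PMAIP1, which encodes the BH3-only protein Noxa, had 12.1, 9.201, 9.24 and 7.12 CPM in Nanog MO, against 2.602, 1.61, 2.62 and 1.84 CPM in control MO (log2 fold change 2.12, SE 0.15, adjusted p = 0.000549). Noxa binds and blocks pro-survival members of the BCL2 family, and its Nanog MO values were all above the controls.

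The receptors moved the same way. TNFRSF10B, a receptor for the death ligand TRAIL in mammals, had 59.4, 45.2, 45.5 and 28.5 CPM in Nanog MO, against 22.2, 16.9, 18.3 and 9.57 CPM in control MO (log2 fold change 1.43, SE 0.0833, adjusted p = 0.000302). EDA2R, the receptor of the ligand EDA-A2 and a kin of the death receptors, had 55.8, 31.4, 32.1 and 22.7 CPM in Nanog MO, against 23.1, 14.9, 13.1 and 9.71 CPM in control MO (log2 fold change 1.22, SE 0.0850, adjusted p = 0.000549). For TNFRSF10B the groups did not overlap, while the lowest EDA2R value in Nanog MO, in pair 4, was below the highest control value, in pair 1, and every pair rose. FAS, the classic death receptor, had 3.700, 4.62, 2.46 and 3.64 CPM in Nanog MO, against 1.22, 4.46, 1.18 and 0.885 CPM in control MO, and did not pass the test although it was higher in each pair (log2 fold change 1.12, SE 0.30, adjusted p = 0.122).

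Secreted and feedback members also rose. GDF15, a stress-induced ligand of the TGF-beta family, had 26.02, 26.1, 22.6 and 12.5 CPM in Nanog MO, against 7.86, 7.68, 5.71 and 4.16 CPM in control MO (log2 fold change 1.77, SE 0.10, adjusted p = 0.000302). MDM2, the ubiquitin ligase that marks p53 for degradation, had 161, 121, 116 and 112 CPM in Nanog MO, against 78.95, 61.8, 70.3 and 52.8 CPM in control MO (log2 fold change 0.95, SE 0.0751, adjusted p = 0.000673). CCNG1, a cyclin that is among the most steadily induced p53 targets in mammals, had 292, 291, 324 and 229 CPM in Nanog MO, against 172, 158, 183 and 144 CPM in control MO (log2 fold change 0.78, SE 0.0616, adjusted p = 0.000673). In each of these 3 genes all Nanog MO samples lay above all controls. SESN1, a sestrin that restrains mTORC1, had 82.8, 65.8, 63.5 and 54.8 CPM in Nanog MO, against 44.5, 38.9, 38.7 and 32.5 CPM in control MO (log2 fold change 0.78, SE 0.0695, adjusted p = 0.00116), and is the one called target that the naming rule had not picked. The median log2 ratio of the 9 genes was 1.42, 1.41, 1.31 and 1.56 in pairs 1 to 4. These 9 were chosen by the test over the same pairs, so this is a description. Of all 312 calls, 311 had the same direction in 4 of 4 pairs.

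Several equally well known targets did not pass the test. PCBP4, an RNA binding protein, had 311, 267, 301 and 273 CPM in Nanog MO, against 350.2, 286, 329 and 359 CPM in control MO (log2 fold change -0.20, SE 0.0672, adjusted p = 0.219). BTG2, an antiproliferative gene, had 92.01, 99.4, 88.96 and 83.8 CPM in Nanog MO, against 107, 99.6, 111 and 90.04 CPM in control MO (log2 fold change -0.16, SE 0.0703, adjusted p = 0.341). GADD45A had 72.7, 80.3, 67.5 and 67.7 CPM in Nanog MO, against 89.97, 78.6, 66.5 and 86.2 CPM in control MO (log2 fold change -0.15, SE 0.0849, adjusted p = 0.47). These 3 had negative log2 fold changes, and none passed the test. PLK2 was at 30.6, 48.3, 15.4 and 19.6 CPM in Nanog MO, against 10.2, 52.8, 9.88 and 7.93 CPM in control MO, with pair 2 the highest on both sides (log2 fold change 0.83, SE 0.25, adjusted p = 0.157). The DNA repair genes on the list, XPC and DDB2, had log2 fold changes of 0.03 and -0.04. The gene for the precursor of miR-34a, a microRNA induced by p53 in mammals, was outside the list and was noticed after its values were seen, at 1.14, 0.984, 0.921 and 0.745 CPM in Nanog MO, against 0.425, 0.437, 0.309 and 0.295 CPM in control MO (log2 fold change 1.36, SE 0.25, adjusted p = 0.0338). Reads of this library type over a precursor gene do not measure the mature microRNA.

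**Figure D2:**
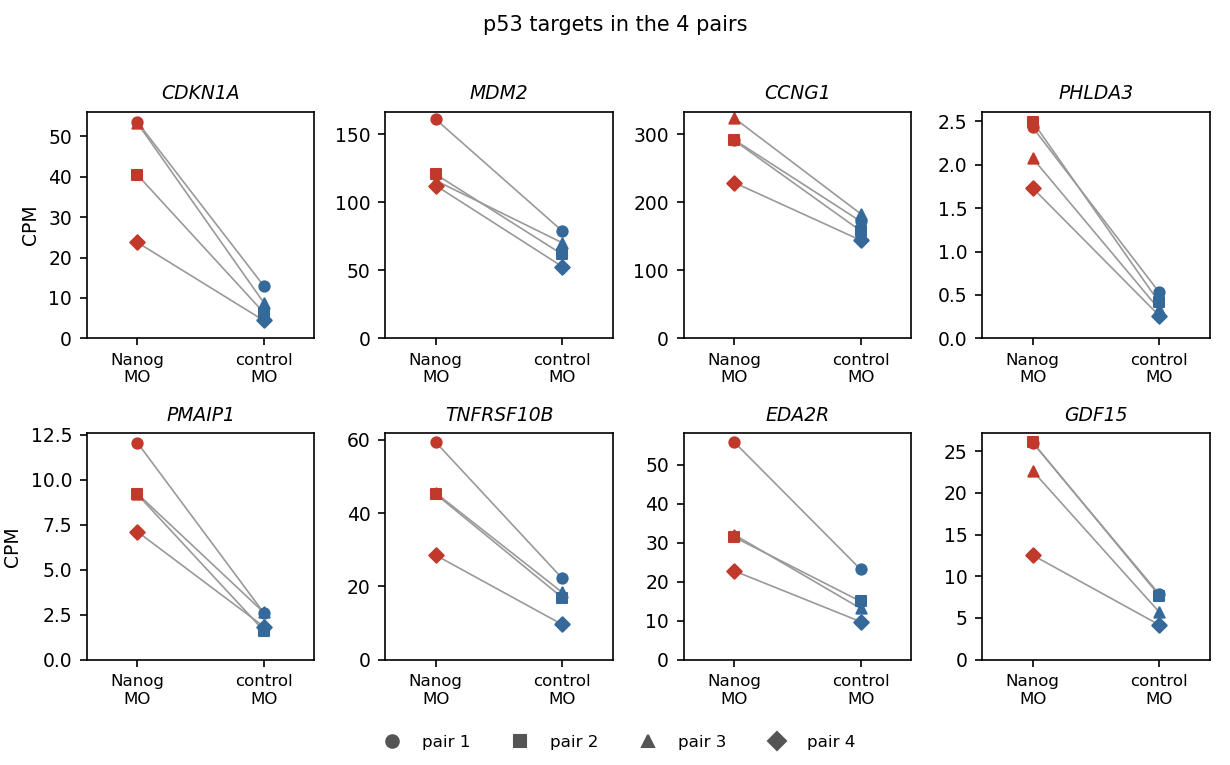
Levels in CPM of 8 p53 targets in Nanog MO (red, left) and control MO (blue, right), each on an axis from 0, with a line for each of the 4 pairs. Every line falls from left to right, and pair 4 (diamond) is the lowest Nanog MO sample in all 8 genes.

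Of 30 genes that carry out or regulate apoptosis, PMAIP1 and TNFRSF10B, both also on the p53 list, rose and none fell, against 0.927% of all genes called higher, and the median log2 fold change was 0.10. The median was close to this in each pair, from 0.10 to 0.14, and 11 of the 30 genes were higher in all 4 pairs, against 12.11% of all genes tested. None of 48 mitotic genes and none of 43 S phase genes passed the paired edgeR test. At an unadjusted p under 0.05, 16 mitotic and 2 S phase genes were lower, and DESeq2 called 1 mitotic gene lower and no S phase gene. With 1 factor of unwanted variation beside the replicate block, edgeR called 2 mitotic genes lower and no S phase gene. Positive log2 fold changes were found in 5 of the 48 and 4 of the 43, against 48.92% over all genes with a mean of at least 1 CPM. The medians were -0.14 for mitotic and -0.08 for S phase genes. MKI67, the antigen of cycling cells, had 226, 255, 231 and 266 CPM in Nanog MO, against 254, 320.5, 327 and 274 CPM in control MO (log2 fold change -0.26, SE 0.0801, adjusted p = 0.174), and was lower in each pair without passing. BUB1B, a spindle checkpoint kinase outside the list and named after its values were seen, had 126, 136, 143 and 169 CPM in Nanog MO, against 162, 182, 203 and 226 CPM in control MO and fell (log2 fold change -0.42, SE 0.0583, adjusted p = 0.0106). Other stress lists held few calls. Of 29 immediate early, integrated stress and heat shock genes, HSPA2 alone passed and rose, against 0.927% of all genes called higher. It had 450.2, 394, 644 and 323 CPM in Nanog MO, against 323, 256, 419 and 275 CPM in control MO (log2 fold change 0.49, SE 0.0769, adjusted p = 0.019). HSPA2 kept its call in 6 of 12 alternatives, and DESeq2 called 4 genes of this list higher. None of 21 interferon-stimulated genes passed (edgeR, with 2 at an unadjusted p under 0.05 and 0 with DESeq2).

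Of 18 factors of the NPB tested, 7 fell and none rose, against 0.774% of all genes called lower, and the median log2 fold change of the list was -0.40. The genes that fell were PAX7, MSX1, TFAP2A, ZIC1, ZIC2, ZIC5 and MAFA. Fitted Nanog MO levels of the 7 were 0.466 to 0.68 times those in control MO. The medians of the 7 genes were lower in each of the 4 pairs, but the 7 were chosen by the test over these pairs. In bulk tissue, fewer cells of a type and less RNA per cell cannot be told apart, which holds for every marker described here.

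PAX7, the paired box factor that marks the chick border from gastrulation, had 14.9, 7.74, 13.1 and 22.3 CPM in Nanog MO, against 26.4, 21.1, 30.8 and 42.3 CPM in control MO (log2 fold change -1.10, SE 0.12, adjusted p = 0.00335). The highest Nanog MO sample lay above the lowest control, but each pair fell. ZIC1, a zinc finger factor of the dorsal neural fold, had 13.3, 17.9, 16.1 and 19.96 CPM in Nanog MO, against 30.6, 31.4, 27.8 and 30.98 CPM in control MO (log2 fold change -0.86, SE 0.11, adjusted p = 0.00715), with no overlap. ZIC2 was the more frequently read member, at 242, 211, 242 and 222 CPM in Nanog MO, against 397, 278, 315 and 408 CPM in control MO (log2 fold change -0.59, SE 0.0909, adjusted p = 0.0175). ZIC5 had 43.4, 44.7, 43.8 and 49.01 CPM in Nanog MO, against 82.6, 67.9, 49.3 and 84.99 CPM in control MO (log2 fold change -0.63, SE 0.12, adjusted p = 0.0371). All Nanog MO samples lay below all controls for these 3 ZIC genes. MSX1, a homeodomain target of BMP signalling, had 54.2, 70.6, 54.7 and 59.03 CPM in Nanog MO, against 103, 77.2, 90.8 and 106 CPM in control MO (log2 fold change -0.66, SE 0.12, adjusted p = 0.0371). TFAP2A, an AP-2 factor of border and epidermis, had 93.3, 118, 71.98 and 107 CPM in Nanog MO, against 164, 129.5, 117 and 159 CPM in control MO (log2 fold change -0.56, SE 0.10, adjusted p = 0.0376). In both genes pair 2 had the smallest difference of the 4 pairs. MAFA, a bZIP factor better known from lens and pancreas, had 23.1, 23.4, 27.02 and 24.6 CPM in Nanog MO, against 42.2, 29.6, 44.1 and 45.5 CPM in control MO (log2 fold change -0.70, SE 0.11, adjusted p = 0.0156).

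The border genes that did not pass included DLX5, at a log2 fold change of -0.20 (SE 0.11), PAX3 at -0.45 (SE 0.14) and MSX2 at 0.45 (SE 0.41). Over the list 15 of 18 log2 fold changes were negative. All 7 were called with DESeq2, RLE size factors, filterByExpr, no filter, and with 1 factor of unwanted variation (RUVs) beside the replicate block. The calls rested in part on the pairing and on pair 1. Without the replicate block ZIC1 alone of the 7 was called, against all 8 controls of the series none was, and without pair 1 PAX7 and ZIC1 were called. With the RUVs factor and no block MSX1, ZIC1, ZIC2 and MAFA were called. Leaving out pair 2, 3 or 4 kept 6, 5 and 4 of the 7 calls.

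Crest factors were less uniform. Of 22 tested, TFAP2B, MYCN and ZEB2 fell, against 0.774% of all genes called lower. ID1 rose, against 0.927% called higher, and the median log2 fold change was -0.14. None of the 4 was called without the replicate block or against all 8 controls, ID1 was not called without pair 2, 3 or 4, and ZEB2 was not without pair 1 or 3. All 4 were called with DESeq2, where 5 crest factors were lower and 3 higher. The RUVs factor with the block kept all 4 too, with 6 lower and 4 higher. TFAP2B, the AP-2 factor of specified crest, had 1.09, 1.44, 3.43 and 6.75 CPM in Nanog MO, against 4.35, 7.500, 11.7 and 17.2 CPM in control MO (log2 fold change -1.84, SE 0.17, adjusted p = 0.00159). Its controls ranged from 4.35 to 17.2 CPM and the groups overlapped, while the Nanog MO value was the lower in each pair. MYCN, a proto-oncogene of the border that is also on the pluripotency list, had 204, 146, 179 and 188 CPM in Nanog MO, against 299, 211, 247 and 314 CPM in control MO (log2 fold change -0.57, SE 0.0653, adjusted p = 0.00507). ZEB2, a zinc finger repressor of epithelial genes, had 95.2, 106, 87.6 and 108 CPM in Nanog MO, against 130.0, 139.6, 136 and 144 CPM in control MO (log2 fold change -0.47, SE 0.0649, adjusted p = 0.0106). Neither gene's groups overlapped. ID1, a helix-loop-helix target of BMP signalling, had 104, 126, 98.4 and 121 CPM in Nanog MO, against 96.00, 82.2, 59.6 and 82.3 CPM in control MO (log2 fold change 0.50, SE 0.0973, adjusted p = 0.0417), again with no overlap. SNAI2, the repressor that precedes crest migration, had 53.9, 42.5, 41.2 and 36.8 CPM in Nanog MO, against 47.4, 62.8, 60.8 and 66.3 CPM in control MO (log2 fold change -0.45, SE 0.15, adjusted p = 0.197), and the change did not pass. Among 21 pluripotency factors MYCN was the single call of the paired edgeR fit, against 0.774% of all genes called lower, and the median was -0.11. With DESeq2 3 of the 21 were called lower. With the RUVs factor and the replicate block 6 were called lower and 1 higher. SALL4, a zinc finger factor of pluripotent cells, had 921, 904, 894 and 878 CPM in Nanog MO, against 966, 913, 1057 and 953 CPM in control MO (adjusted p = 0.47). LIN28A, an RNA binding protein of early embryos, had 655, 532, 556 and 654 CPM in Nanog MO, against 698, 629.5, 668 and 714 CPM in control MO (adjusted p = 0.211). Both were lower in each pair without passing.

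Among the strongest falls were regional factors of the midbrain and neural plate. EN1, the homeodomain factor of the midbrain and its boundary with the hindbrain, had 1.07, 1.69, 2.26 and 6.03 CPM in Nanog MO, against 2.89, 6.37, 9.62 and 24.9 CPM in control MO (log2 fold change -1.90, SE 0.14, adjusted p = 0.000654). Its level differed between pairs on both sides of the embryo, with controls ranging from 2.89 to 24.9 CPM, and the Nanog MO value was below its own control in each. PAX2, of the same region, had 2.61, 6.34, 4.95 and 10.5 CPM in Nanog MO, against 4.06, 10.4, 12.4 and 30.5 CPM in control MO (log2 fold change -1.07, SE 0.17, adjusted p = 0.0175), with the highest values in pair 4 as well. WNT1, the ligand of the dorsal midline and midbrain boundary, had 9.99, 9.09, 9.77 and 11.4 CPM in Nanog MO, against 13.2, 18.4, 16.6 and 34.00 CPM in control MO (log2 fold change -0.94, SE 0.17, adjusted p = 0.0351). Its Nanog MO values were close to each other, and all lay below the lowest control. LMX1B, a LIM homeodomain factor of this region, had 43.4, 29.96, 38.4 and 53.04 CPM in Nanog MO, against 70.8, 41.1, 58.1 and 75.1 CPM in control MO (log2 fold change -0.57, SE 0.0732, adjusted p = 0.00804), and was named after its values were seen.

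PAX6, the eye and forebrain paired box factor, had 28.4, 39.9, 41.1 and 63.5 CPM in Nanog MO, against 94.5, 95.6, 87.2 and 136 CPM in control MO (log2 fold change -1.29, SE 0.11, adjusted p = 0.000965), and no Nanog MO value reached the controls. The fourth call among 27 neural plate factors was HES5, a Notch target with few reads, at 0.499, 1.14, 1.54 and 0.219 CPM in Nanog MO, against 1.83, 1.84, 3.63 and 1.41 CPM in control MO (log2 fold change -1.48, SE 0.30, adjusted p = 0.0481). Of all genes, 0.774% were called lower and 0.927% higher. None of the 27 rose, and the list's median was -0.22. None of the 4 was called without the replicate block or against all 8 controls. All 4 were called with DESeq2 and with the RUVs factor and the block. In these settings 7 and 9 of the list were called lower and 0 higher. The neural plate genes SOX2 and SOX3 were lower in each pair without passing. SOX2 was at 106, 121, 135 and 73.4 CPM in Nanog MO, against 155, 122, 151 and 124 CPM in control MO (log2 fold change -0.37, SE 0.12, adjusted p = 0.185). SOX3 was at 86.3, 95.9, 109 and 75.8 CPM in Nanog MO, against 134, 113, 130.0 and 135 CPM in control MO (log2 fold change -0.49, SE 0.10, adjusted p = 0.0586). EN2 had a log2 fold change of 0.09 (SE 0.30, adjusted p = 0.928).

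**Figure D3:**
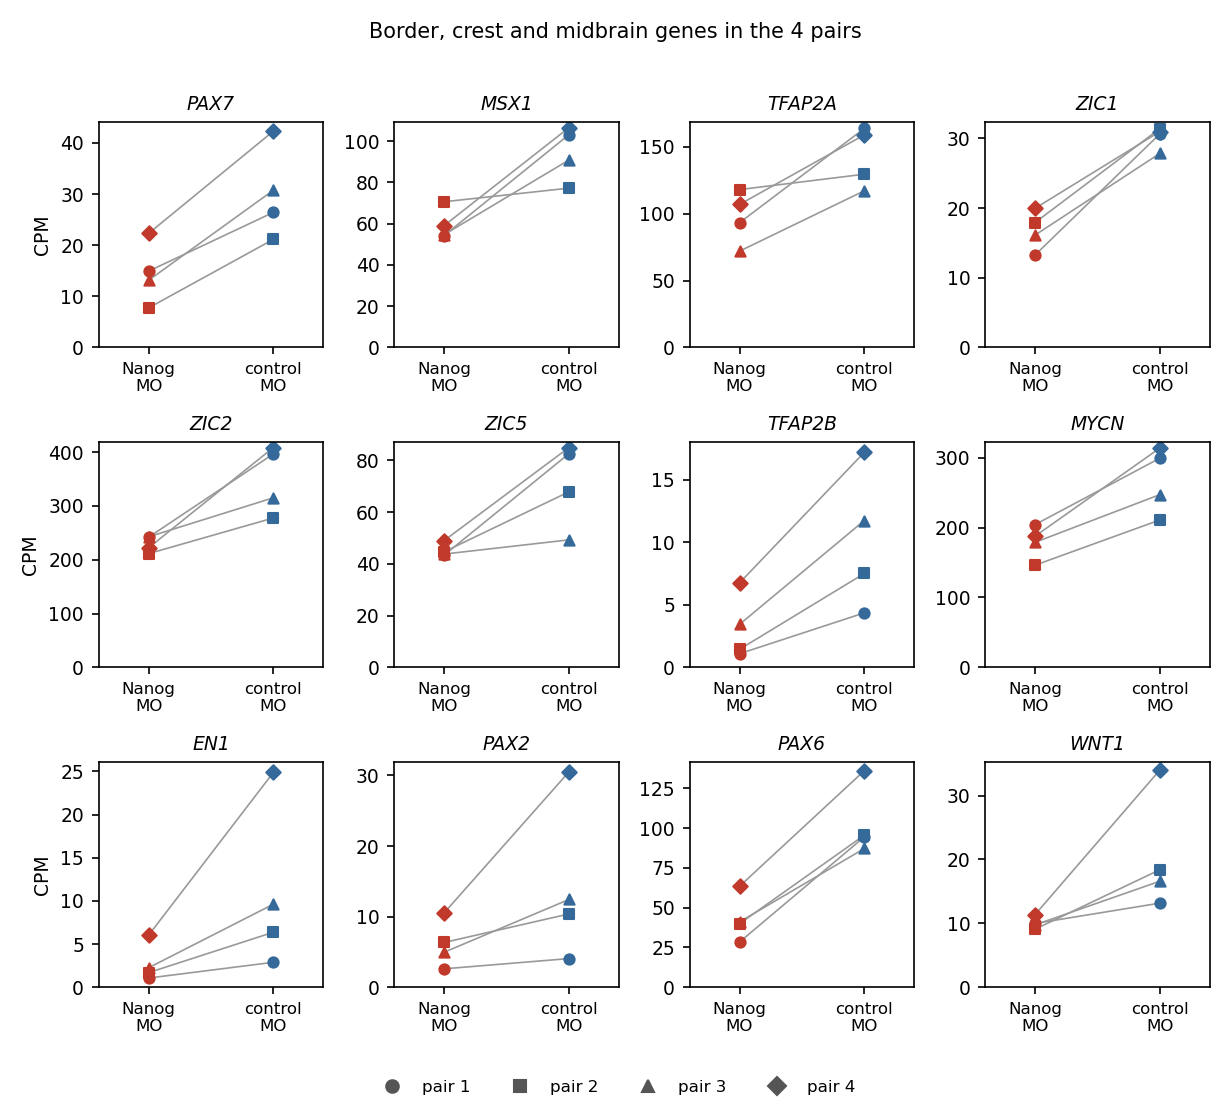
Levels in CPM of 12 border, crest and midbrain genes in Nanog MO (red, left) and control MO (blue, right), on axes from 0, with a line for each pair. Every line rises from left to right, and for EN1, PAX2 and WNT1 the control of pair 4 (diamond) stands well above the other controls.

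Among the other genes of lowest p that fell, several act in neurons or in tissue polarity. ASTN1, a membrane protein of neuronal migration, had 193, 148, 143 and 197 CPM in Nanog MO, against 278, 211, 247 and 288 CPM in control MO (log2 fold change -0.59, SE 0.0667, adjusted p = 0.00471). CELSR2, a cadherin of planar cell polarity, had 222, 179.9, 232 and 222 CPM in Nanog MO, against 321, 246, 344 and 376 CPM in control MO (log2 fold change -0.58, SE 0.0675, adjusted p = 0.00546). KIF21B, a kinesin of neurites, had 268, 219, 207 and 258 CPM in Nanog MO, against 352, 325, 300.0 and 372 CPM in control MO (log2 fold change -0.51, SE 0.0595, adjusted p = 0.00546). The 3 genes had no overlap between groups. MOXD1, a monooxygenase-like protein of crest, averaged 55.4 ± 6.24 CPM in Nanog MO and 81.4 ± 11.6 CPM in control MO (SD, n = 4 each; log2 fold change -0.55, SE 0.0632, adjusted p = 0.0051). The kinase MYLK, which activates myosin, averaged 151 ± 18.5 CPM in Nanog MO and 219 ± 24.9 CPM in control MO (log2 fold change -0.53, SE 0.0624, adjusted p = 0.00546). The proton-gated channel ASIC1 averaged 59.5 ± 10.2 CPM in Nanog MO and 85.95 ± 13.2 CPM in control MO (log2 fold change -0.53, SE 0.0627, adjusted p = 0.00546). DRAXIN, a secreted Wnt antagonist and guidance factor of dorsal neural tube and crest, had 78.5, 76.3, 123 and 99.5 CPM in Nanog MO, against 118, 136, 197 and 198 CPM in control MO (log2 fold change -0.77, SE 0.0769, adjusted p = 0.00224), and fell in each pair although the groups overlapped.

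Signalling genes were counted by pathway. Of 44 Wnt genes 6 fell, against 0.774% of all genes called lower, and 2 rose, against 0.927% called higher. None of the 8 was called without the replicate block or against all 8 controls, and leaving out pairs 1 to 4 kept 2, 3, 3 and 5 of them. All 8 were called with DESeq2, where 14 Wnt genes were lower and 2 higher. The RUVs factor with the block kept all 8 too, with 13 lower and 2 higher. The ligands WNT1 and WNT8B, the receptor FZD3 and the antagonists DRAXIN and FRZB fell, as did the target SP8, while the antagonists SFRP1 and DKK1 rose. SP8 had 31.6, 26.8, 39.3 and 58.1 CPM in Nanog MO, against 72.1, 46.7, 55.3 and 86.8 CPM in control MO (log2 fold change -0.76, SE 0.11, adjusted p = 0.0148). WNT8B, with few reads, had 0.431, 0.252, 0.553 and 1.01 CPM in Nanog MO, against 1.06, 0.897, 0.952 and 4.03 CPM in control MO (log2 fold change -1.50, SE 0.26, adjusted p = 0.0317). DKK1 had 56.9, 55.7, 83.7 and 92.4 CPM in Nanog MO, against 42.6, 40.3, 33.96 and 43.6 CPM in control MO (log2 fold change 0.82, SE 0.15, adjusted p = 0.0333), with every Nanog MO sample above every control. SFRP1 had 967, 659, 871 and 704 CPM in Nanog MO, against 829.5, 503, 608 and 567 CPM in control MO (log2 fold change 0.36, SE 0.0664, adjusted p = 0.0365), with overlap. Thus the secreted antagonists moved in both directions, and the pathway's median was -0.10.

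Of 22 Notch genes HES5, NRARP and DNER fell, against 0.774% of all genes called lower, and none rose. None of the 3 was called without the replicate block, against all 8 controls or without pair 1, and NRARP alone was without pair 3 or 4. All 3 were called with DESeq2 and with the RUVs factor and the block. In each of these settings 4 Notch genes were called lower and 1 higher. NRARP, a Notch target that feeds back on the receptor, had 67.99, 40.9, 48.7 and 69.1 CPM in Nanog MO, against 109.8, 88.6, 67.4 and 118 CPM in control MO (log2 fold change -0.76, SE 0.0996, adjusted p = 0.00841). The ligand-like DNER had 12.8, 9.84, 11.9 and 13.7 CPM in Nanog MO, against 19.01, 12.98, 16.3 and 20.2 CPM in control MO (log2 fold change -0.50, SE 0.0914, adjusted p = 0.0365). Each pair fell for both. Of 33 BMP and TGF-beta genes ID1 alone passed, and of 27 FGF genes only FGF12. Both rose, against 0.927% of all genes called higher. DESeq2 called 3 of the BMP and TGF-beta genes higher, and 1 FGF gene higher and 2 lower. FGF12, which acts inside the cell on sodium channels, had 36.96, 40.7, 45.5 and 35.6 CPM in Nanog MO, against 27.9, 24.5, 29.1 and 24.4 CPM in control MO (log2 fold change 0.58, SE 0.0843, adjusted p = 0.0142). FGF12 kept its call in 7 of 12 alternatives. FGF16, a ligand, and FGF14, of the same kind as FGF12, are outside the list and were named after their values were seen. FGF16 had 0.817, 0.618, 0.276 and 0.504 CPM in Nanog MO, against 1.38, 3.13, 0.926 and 2.92 CPM in control MO and fell (log2 fold change -1.85, SE 0.31, adjusted p = 0.0258). FGF14 had 3.496, 2.998, 2.74 and 4.54 CPM in Nanog MO, against 5.42, 4.99, 5.17 and 7.61 CPM in control MO and fell too (log2 fold change -0.76, SE 0.13, adjusted p = 0.0254). For both the groups did not overlap. Of 32 hedgehog and retinoic acid genes the sonic hedgehog co-receptor BOC fell, against 0.774% of all genes called lower. It had 47.1, 43.9, 44.3 and 46.7 CPM in Nanog MO, against 62.5, 69.6, 77.96 and 76.5 CPM in control MO (log2 fold change -0.65, SE 0.0814, adjusted p = 0.00708). The BOC values in Nanog MO lay within 4 CPM of each other and below every control. The median of the hedgehog and retinoic acid list was 0.015. DESeq2 called 5 of its genes lower and 0 higher, and the RUVs factor with the block 6 lower and 3 higher.

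Calls on the non-neural ectoderm list went in both directions. Of 32 non-neural ectoderm and preplacodal genes, KRT24, KRT8 and EPCAM rose, against 0.927% of all genes called higher. TFAP2A and ASTN1 fell, against 0.774% called lower, and the median of the list was 0.12. EPCAM alone of the 5 was called without the replicate block, and none was against all 8 controls. KRT8 lost its call when any single pair was left out. All 5 were called with DESeq2, which called 6 of the list higher and 3 lower. The RUVs factor with the block kept all 5 too, with 10 higher and 2 lower. EPCAM, the epithelial cell adhesion molecule, had 374, 389, 369 and 365 CPM in Nanog MO, against 268, 210.0, 179 and 259 CPM in control MO (log2 fold change 0.73, SE 0.10, adjusted p = 0.0106). KRT24, a keratin, had 386, 419, 476 and 359 CPM in Nanog MO, against 290.1, 299, 312 and 249 CPM in control MO (log2 fold change 0.51, SE 0.0599, adjusted p = 0.00546). Neither gene's groups overlapped. KRT8 had 233, 282, 202 and 231 CPM in Nanog MO, against 183, 241, 163 and 164 CPM in control MO (log2 fold change 0.34, SE 0.0640, adjusted p = 0.0376). Of 17 tight junction genes DESeq2 called 3 higher and 0 lower. CLDN3 was the one call among them in the paired edgeR fit, against 0.927% of all genes called higher. It had 113, 139, 79.97 and 123 CPM in Nanog MO, against 81.6, 112, 51.9 and 64.5 CPM in control MO (log2 fold change 0.58, SE 0.0982, adjusted p = 0.0258). Both genes overlapped between the groups, and the highest control was that of pair 2. GATA2 and GATA3, the factors that define early non-neural ectoderm, did not pass (log2 fold change 0.44, SE 0.20, adjusted p = 0.356 and log2 fold change 0.54, SE 0.15, adjusted p = 0.131).

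Of 50 adhesion, matrix and guidance genes, PCDH8, EPHA4, SEMA6B and ROBO2 fell, against 0.774% of all genes called lower. None of the 4 was called without the replicate block, against all 8 controls or without pair 1, and PCDH8 alone was without pair 2 or 3. All 4 were called with DESeq2, where 7 of the list were lower and 2 higher. The RUVs factor with the block kept all 4 too, with 8 lower and 4 higher. PCDH8, a protocadherin, had 38.9, 27.2, 34.8 and 39.4 CPM in Nanog MO, against 55.4, 44.7, 51.05 and 57.3 CPM in control MO (log2 fold change -0.58, SE 0.0733, adjusted p = 0.00727). The Slit receptor ROBO2 had 25.9, 30.5, 23.6 and 37.03 CPM in Nanog MO, against 41.3, 42.2, 40.96 and 43.6 CPM in control MO (log2 fold change -0.54, SE 0.10, adjusted p = 0.0376). Neither gene's groups overlapped. The ephrin receptor EPHA4 averaged 157 ± 37.8 CPM in Nanog MO and 202 ± 45.99 CPM in control MO (SD, n = 4 each; log2 fold change -0.37, SE 0.0693, adjusted p = 0.0376). The semaphorin SEMA6B averaged 65.1 ± 7.59 CPM in Nanog MO and 85.8 ± 14.7 CPM in control MO (log2 fold change -0.39, SE 0.0728, adjusted p = 0.0376).

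Other rises of low p were those of TDH, INKA2 and GAS6. TDH, a mitochondrial threonine dehydrogenase known from mouse embryonic stem cells, had 68.2, 40.8, 61.6 and 33.3 CPM in Nanog MO, against 12.4, 14.1, 9.93 and 5.21 CPM in control MO, 4.98-fold higher (log2 fold change 2.32, SE 0.18, adjusted p = 0.000673). INKA2, an inhibitor of the kinase PAK4, had 18.1, 14.6, 14.9 and 8.98 CPM in Nanog MO, against 5.02, 4.46, 4.99 and 3.12 CPM in control MO (log2 fold change 1.67, SE 0.11, adjusted p = 0.000421). GAS6, a ligand of TAM receptors, had 31.1, 42.5, 27.9 and 22.9 CPM in Nanog MO, against 12.7, 13.6, 12.7 and 10.98 CPM in control MO (log2 fold change 1.28, SE 0.11, adjusted p = 0.00115). In all 3 the Nanog MO samples lay above the controls. INKA2, EPCAM, ZEB2, HES5, SFRP1 and SEMA6B are, as CDKN1A, TNFRSF10B, EDA2R, SESN1 and PCBP4 are, among the genes the study picked from these samples.

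Metabolic lists held 3 calls. FDFT1, SQLE and SREBF2, of 21 genes of cholesterol synthesis, fell, against 0.774% of all genes called lower. The median over the list was -0.21, with 19 of 21 values negative and 15 lower in all 4 pairs, against 11.09% of all genes tested. SQLE, the squalene epoxidase, had 127, 133, 139 and 180.0 CPM in Nanog MO, against 168, 157, 174 and 216 CPM in control MO (log2 fold change -0.31, SE 0.0593, adjusted p = 0.0421). FDFT1, the squalene synthase, had 79.9, 139, 150.5 and 165 CPM in Nanog MO, against 121, 154, 209 and 227 CPM in control MO (log2 fold change -0.42, SE 0.0788, adjusted p = 0.0376). SREBF2, the factor that drives the pathway, had 328, 288, 280.5 and 344 CPM in Nanog MO, against 409.5, 359.5, 329 and 453 CPM in control MO (log2 fold change -0.32, SE 0.0586, adjusted p = 0.0369). The groups overlapped for all 3. None of these calls was made without pair 1, 3 or 4, or without the replicate block. All 3 were made with RLE size factors, filterByExpr, no filter, DESeq2, and the RUVs factor with the block. DESeq2 called 7 of the list lower and the RUVs factor with the block 6, with 0 higher in both. The paired edgeR fit made no call among 71 cytosolic and 70 mitochondrial ribosomal proteins and 72 oxidative phosphorylation subunits. It made none among 31 proteasome subunits, 21 glycolysis genes or 10 enzymes of DNA methylation. The medians of these 6 lists were, in this order, -0.03, 0.01, 0.01, 0.07, -0.06 and -0.12. At an unadjusted p under 0.05 these 6 lists held 1, 2, 0, 4, 3 and 3 genes, and DESeq2 called 1 gene of glycolysis and 1 of DNA methylation and none of the others. With RLE size factors, filterByExpr or no filter, 1 glycolysis gene was called lower. With the RUVs factor and the block, 1 cytosolic ribosomal protein, 1 glycolysis gene and 1 DNA methylation enzyme were called lower. In that fit 1 proteasome subunit was called higher.

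Lists of markers of other germ layers had medians above 0. Of 26 mesoderm markers none passed in the paired edgeR fit (9 higher and 1 lower at an unadjusted p under 0.05). DESeq2 called 4 higher and 1 lower. With no filter 3 were called higher and 1 lower, and with the RUVs factor and the block 5 higher and 1 lower. Positive log2 fold changes were found in 23 of the 26, against 51.8% of all genes tested, and the median was 0.40. Of 11 axial markers DKK1 rose, against 0.927% of all genes called higher, all 11 were positive and the median was 0.49. Of 19 endoderm markers APOA1 and CXCR4 rose, against 0.927% of all genes called higher. FRZB fell, against 0.774% called lower, and the median of the list was 0.77. Of 15 blood and vessel markers FLT1 rose, against 0.927% of all genes called higher, and the median was 0.40. None of the 3 endoderm calls was made without pair 1, without the replicate block or against all 8 controls, and APOA1 alone kept its call without pair 2 or 3. All 3 were made with DESeq2, with no filter, and with the RUVs factor and the block. In these settings 3, 7 and 10 endoderm markers were called higher. DKK1 and FLT1 were not called without pair 1, 3 or 4, without the replicate block or against all 8 controls. With the RUVs factor and no block, APOA1 and FLT1 were called and DKK1 was not. These values stand beside every result above, and their part in the falls of border factors or the rises of p53 targets was not tested.

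The summed levels of these lists differed between pairs on both sides. Summed over the list, endoderm markers were at 930.1, 1346, 811 and 1342 CPM in Nanog MO, against 874, 1267, 671 and 779.9 CPM in control MO. The largest difference was in pair 4, whose endoderm median log2 ratio was 1.58. FRZB, the Wnt antagonist that fell, made up 332, 244.5, 321 and 439 CPM of these sums in Nanog MO. In control MO it made up 515, 318, 405 and 503 CPM, so the sums understate the rise of the other members. TTR, the carrier of thyroid hormone made by yolk sac endoderm, had 0.908, 18.9, 0.138 and 30.2 CPM in Nanog MO, against 0.0531, 8.79, 0.0257 and 0.0328 CPM in control MO, high in both samples of pair 2 and in Nanog MO of pair 4 (log2 fold change 3.26, SE 1.00, adjusted p = 0.175). SOX17, the endoderm factor, had 5.698, 20.5, 14.8 and 17.1 CPM in Nanog MO, against 4.51, 13.7, 5.300 and 3.12 CPM in control MO (log2 fold change 1.19, SE 0.30, adjusted p = 0.102). FOXA2, of endoderm and notochord, had 42.04, 82.2, 60.1 and 53.5 CPM in Nanog MO, against 33.00, 62.4, 18.6 and 28.8 CPM in control MO (log2 fold change 0.82, SE 0.20, adjusted p = 0.0861). Neither passed. APOA1, an apolipoprotein, had 181, 451, 194 and 315 CPM in Nanog MO, against 113, 293, 102 and 105 CPM in control MO (log2 fold change 0.95, SE 0.14, adjusted p = 0.0152). CXCR4, a chemokine receptor, had 63.6, 67.96, 81.3 and 39.1 CPM in Nanog MO, against 45.95, 47.9, 46.3 and 32.7 CPM in control MO (log2 fold change 0.51, SE 0.0934, adjusted p = 0.0353).

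Axial markers summed to 797, 503, 1207 and 546 CPM in Nanog MO and 607, 688, 166 and 544 CPM in control MO. The control of pair 3 stood lowest, and CHRD, the BMP antagonist of node and notochord, had 482, 231, 784 and 270.3 CPM in Nanog MO, against 378, 402, 37.9 and 314 CPM in control MO. Its change did not pass (log2 fold change 0.65, SE 0.72, adjusted p = 0.738), and it was positive in 2 pairs and negative in 2. SHH, the notochord ligand, had 33.4, 20.5, 42.04 and 20.2 CPM in Nanog MO, against 27.4, 22.1, 1.24 and 29.5 CPM in control MO (log2 fold change 0.74, SE 0.73, adjusted p = 0.699). TBXT, the brachyury factor, had 109.5, 52.7, 125 and 44.3 CPM in Nanog MO, against 61.2, 91.9, 22.1 and 58.6 CPM in control MO (log2 fold change 0.49, SE 0.46, adjusted p = 0.684). The mesoderm factors TBX6, MEOX1 and TCF15 had log2 fold changes of 0.67 (SE 0.34), 0.09 (SE 0.19) and 0.14 (SE 0.26), and none passed (adjusted p = 0.408, 0.874 and 0.858). Mesoderm markers summed to 1020 to 1437 CPM in Nanog MO and 876 to 1374 CPM in control MO, and blood and vessel markers to 370.1 to 515 CPM in Nanog MO and 267 to 454 CPM in control MO. Of the markers fixed for blood and vessel, GATA1 had 5 or fewer reads in every sample and was not tested. TAL1, a factor of blood precursors, had 50.3, 53.5, 64.8 and 41.3 CPM in Nanog MO, against 36.2, 46.8, 40.8 and 44.3 CPM in control MO. CDH5, the cadherin of endothelium, had 5.45, 10.2, 4.47 and 12.2 CPM in Nanog MO, against 2.12, 11.6, 4.04 and 6.49 CPM in control MO. The groups overlapped for both genes. The VEGF receptor FLT1 had 10.2, 12.2, 10.8 and 10.8 CPM in Nanog MO, against 5.42, 10.4, 6.12 and 6.099 CPM in control MO (log2 fold change 0.69, SE 0.14, adjusted p = 0.0486).

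**Figure D4:**
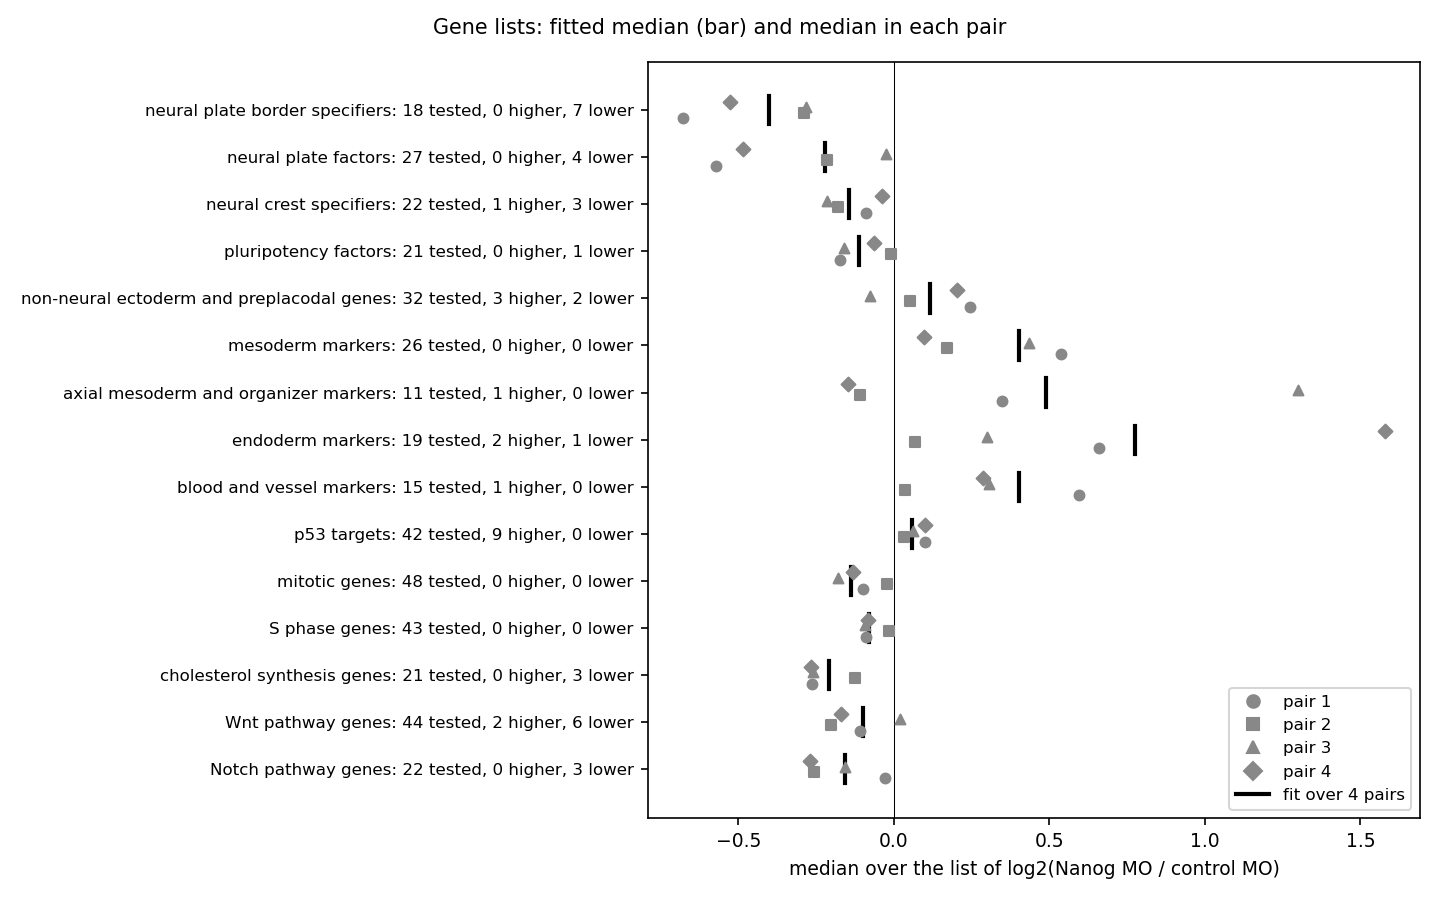
Median log2 ratio of Nanog MO over control MO for 15 gene lists, as fitted over 4 pairs (bar) and within each pair (symbols), with counts of members tested and called in the labels. Border and neural plate medians are below 0 in each pair, endoderm and axial medians spread most between pairs, and the p53 list's median is near 0 although 9 of its 42 genes rose.

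The effects were set beside those of the PouV MO and Klf4 MO, each against its own opposite side, with 2 pairs each whose sides were both present. The question was whether an effect of the Nanog MO differed from the mean of the other 2. None of 18857 genes passed (0% called, edgeR), while 1357 had an unadjusted p under 0.05 and DESeq2 called 37. In this joint fit CDKN1A had a log2 fold change of 2.42 with Nanog MO, 1.89 with PouV MO and 0.75 with Klf4 MO (adjusted p of the difference = 0.456). All 9 p53 targets called here were above their controls in all 3 knockdowns, from 0.17 to 2.15 with PouV MO and from 0.07 to 0.86 with Klf4 MO, but 4 of them are among those the study picked for this. MDM2 had 0.94, 0.17 and 0.07 with Nanog MO, PouV MO and Klf4 MO (adjusted p of the difference = 0.316), the lowest adjusted p of the 9.

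Of the 7 border factors that fell here, all were below their controls with PouV MO, from -0.54 to -0.04, and 4 of 7 with Klf4 MO. MSX1 had -0.67, -0.23 and 0.66 with the 3 MOs (adjusted p of the difference = 0.567), and PAX7 had -1.11, -0.54 and -0.59 (adjusted p of the difference = 0.591). EN1 had -1.91, -0.84 and -0.52 (adjusted p of the difference = 0.456). These genes were chosen for their change with Nanog MO, which favours a larger value there, so that the order of the 3 values is a description. With 2 pairs each for PouV MO and Klf4 MO, a p above the threshold does not show that the knockdowns acted alike.

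**Figure D5:**
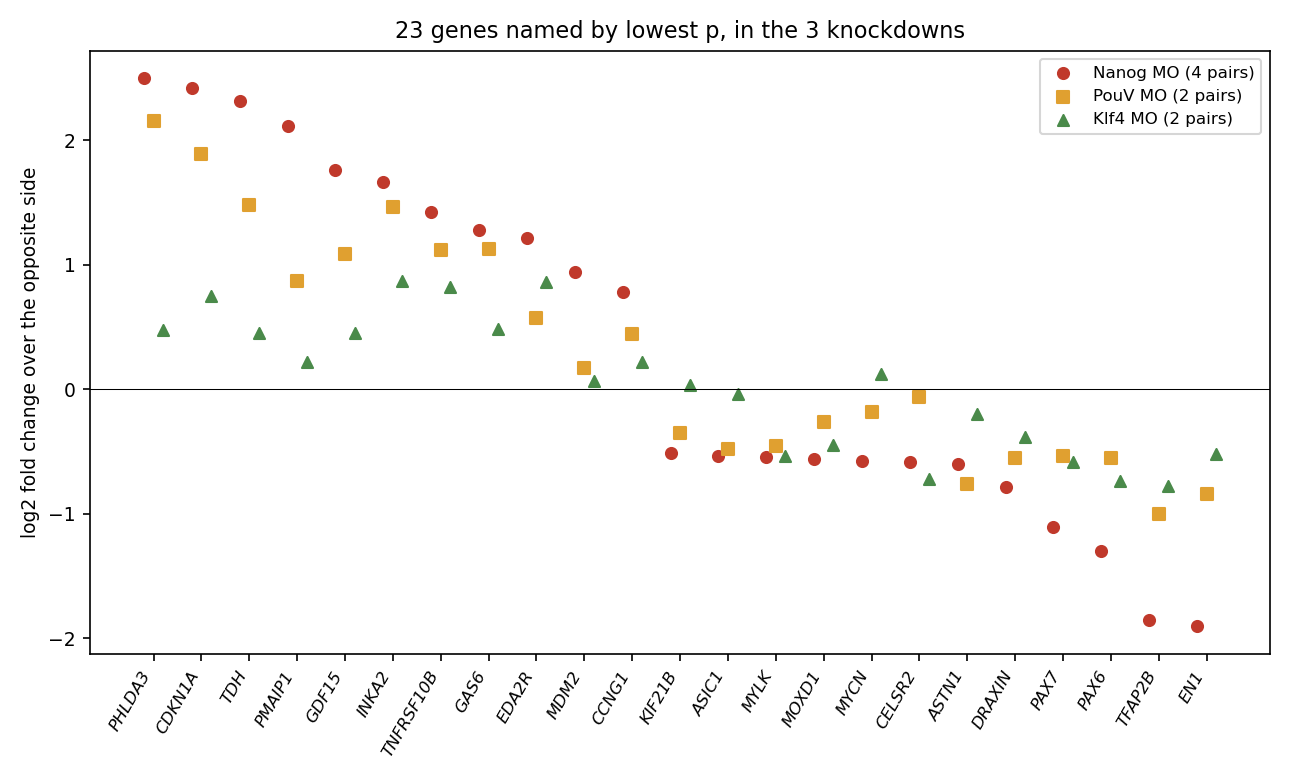
Log2 fold change over the opposite side of 23 genes of lowest p, ordered by the Nanog MO effect, for Nanog MO (circles, 4 pairs), PouV MO (squares, 2 pairs) and Klf4 MO (triangles, 2 pairs). The 11 genes that rose with Nanog MO are above 0 in all 3 knockdowns, and the 12 that fell are below 0 with PouV MO, with KIF21B and MYCN above 0 with Klf4 MO.

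Genes without a symbol made up 38.2% of the rises, 65 of 170, against 26.2% of genes tested and 4.93% of the falls, 7 of 142. They rose further than named genes, with a median log2 fold change of 2.01 against 0.73, at a lower median level of 1.89 CPM against 29.1 CPM. Of the 65, 22 had a mean under 1 CPM. The groups did not overlap for 53 of the 65, against 209 of all 312 calls and 4.52% of all genes tested. The 65 were chosen by the test over the same samples, so this is a description. Because the Nanog MO libraries were also the deeper ones, the part of depth in these calls of low level was not tested.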

How the data were processed

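RNA of pooled dorsal neural folds was sequenced in 19 samples, 8 of which are used here. Per the submitters' processing notes, reads were aligned with STAR 2.7.2a to GRCg6a, and the authors deposited a table of raw read counts per gene. A second deposited table holds a signal, the counts that the authors scaled by TMM library size, and was read only for gene names. A filtered copy of the counts was not used. Symbols came from the authors' table for 12342 genes, from RefSeq for 1185 and from a supplementary table for 5, and 4814 genes tested had none. Where several gene IDs share a symbol, the one with the most reads was taken.

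Genes with over 5 reads in any of the 8 samples were kept. Counts were scaled with TMM factors and fitted with edgeR 4.0.16 (R 4.3.3) by glmQLFit and glmQLFTest with replicate number as a block, and genes were called at a Benjamini-Hochberg adjusted p of 0.05 over all genes tested. Each SE is the absolute log2 fold change over the square root of its F value, and log2 ratios within pairs used a pseudocount of 0.1 CPM. The difference from the PouV MO and Klf4 MO effects was fitted over the 8 pairs with both sides present. The fits were tested on simulated data. The pairing comes from the bilateral design. As a check, deviations from the group means of same-numbered samples had correlations of 0.001 to 0.653, 3 of 4 over 0.1, against -0.627 to 0.391 for other pairings, the lowest same-numbered value being that of pair 4. Each pool holds separate embryos. The p-values of the paired edgeR fits set the mean difference between the sides against its variation from pool to pool. That variation was estimated with information shared across genes (3 residual and 5.8 prior degrees of freedom).

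The genes named were the 3 targeted genes, the 12 with the lowest p in each direction among called genes with a symbol, at least 1 CPM and the same direction in 4 of 4 pairs, the called members of each list (at most 6) and lineage markers. A gene that this rule names is not reported here. The members and lists were chosen with earlier results of these data known. Alternatives were no replicate block, RLE size factors, DESeq2 1.42.0, filterByExpr, no filter, 1 RUVs factor from 1000 genes of low variation with and without the block, all 8 controls of the series, and each pair left out in turn. The paper reports an apparent batch effect in the series and removed it with RUVs. The fit against all 8 controls here made no such correction, so its calls also depend on differences between experiments. Libraries held 31215191 to 44726348 counts, so counting error mattered only for genes of few reads.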

Additional observations from a re-analysis of the deposited data

Results flagged for a closer look

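Among 168 groups of 4 samples examined for named genes and markers, 9 held a sample that stood apart from the other 3 by Dixon's criterion, and chance alone gives about 1 in 20. The Nanog MO sample of pair 2 stood apart for ASIC1, at 44.3 CPM, and for SEMA6B, at 53.8 CPM. The control MO sample of pair 2 did so for APOA1, at 292.7 CPM, FLT1, at 10.4 CPM, KRT18, at 443 CPM, and TTR, at 8.79 CPM, which are markers of endoderm, vessel and surface ectoderm. The control MO sample of pair 4 did so for CXCR4, at 32.7 CPM, WNT8B, at 4.03 CPM, and SOX10, at 6.92 CPM. Without pair 2, ASIC1, APOA1 and FLT1 kept their calls and SEMA6B did not (adjusted p = 0.0792, edgeR). Without pair 4, CXCR4 kept its call and WNT8B did not (adjusted p = 0.108, edgeR). KRT18, TTR and SOX10 were not called with all pairs.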

How the results depend on the processing

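The 312 calls of the paired edgeR fit (170 higher, 142 lower) became 990 (520 and 470) with 1 RUVs factor and the replicate block, 148 (113 and 35) with that factor and no block, 776 (355 and 421) with DESeq2, 592 (324 and 268) with no filter, 44 (38 and 6) with no replicate block and 26 (26 and 0) against all 8 controls of the series, where 818 genes had an unadjusted p under 0.05. Leaving out each pair gave 71 to 290 calls (55 to 149 higher, 16 to 141 lower), with 71, 164, 121 and 223 of the 312 called without pairs 1 to 4. With RLE size factors 311 genes were called, and with filterByExpr 309. Higher calls were 54.5% of all in the paired fit, 45.7% with DESeq2, 86.4% with no replicate block and 76.4% with the RUVs factor and no block. All 312 genes kept their sign under every alternative, except 1 against all 8 controls. CDKN1A, GDF15, INKA2, PMAIP1, TDH, CCNG1 and GAS6 kept their call in all 12 alternatives. TNFRSF10B lost it with no replicate block (adjusted p = 0.0674), and MDM2 and PHLDA3 against all 8 controls. EDA2R lost it in both of these settings and with the RUVs factor and no block. Each of the 12 falls of lowest p lost its call in 2 to 4 of the 12 alternatives. NANOG, not called, had a log2 fold change of -0.32 against all 8 controls, -0.024 with no replicate block, and -0.19 to 0.32 when single pairs were left out, and KLF4 0.059 against all 8 controls. POU5F3 had log2 fold changes of -0.32 to -0.13 over the 12 alternatives and was called lower in 1 of them. The difference from the other knockdowns gave 0 calls in the edgeR fits with all pairs, 37 (28 and 9) with DESeq2, and 0 to 1 (0 to 1 higher, 0 lower) when single pairs were left out. Depth limits genes of few reads, such as HES5 and WNT8B.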

Other observations

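The genes below were picked from the 312 calls after their values were seen, so they say nothing of how other genes of their kind behaved. TAGLN, the actin binding protein transgelin, had 44.2, 45.6, 53.8 and 27.8 CPM in Nanog MO, against 20.7, 21.7, 19.9 and 17.5 CPM in control MO (log2 fold change 1.07, SE 0.12, adjusted p = 0.00443). CSRP2, a LIM protein of smooth muscle, had 30.1, 54.7, 27.2 and 51.2 CPM in Nanog MO, against 12.9, 33.4, 15.5 and 11.5 CPM in control MO (log2 fold change 1.21, SE 0.21, adjusted p = 0.029). ACTA1, TPM1, MYL9, MYL12A and CNN2, which encode an actin, a tropomyosin, myosin light chains and a calponin, were also called higher, with log2 fold changes of 0.76, 0.46, 0.40, 0.31 and 0.52. The kinase MYLK, which acts on myosin light chains, was called lower.

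GAD1, which makes the transmitter GABA, had 3.65, 9.89, 5.25 and 6.33 CPM in Nanog MO, against 7.38, 13.1, 10.01 and 8.89 CPM in control MO (log2 fold change -0.70, SE 0.14, adjusted p = 0.0437). The glutamate receptor genes GRM3, GRM4, GRIA1 and GRIK3 had log2 fold changes of -1.07, -0.53, -0.64 and -0.56, the GABA receptor gene GABRA3 had -0.54 and the calcium channel gene CACNA1E had -0.43. GRIA1 had 22.1, 19.6, 27.99 and 17.5 CPM in Nanog MO, against 34.4, 32.7, 40.8 and 26.9 CPM in control MO. Transcription factors picked in the same way fell too. SALL3 had a log2 fold change of -0.74, IRX2 -0.55, SOX11 -0.32, RFX4 -0.67 and PRDM12 -0.91, all with edgeR at an adjusted p under 0.05.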
